A study of Mus musculus with 6 samples.

Results

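The DNA replication and S phase genes are 40 genes whose products copy DNA or prepare cells to copy it. They were chosen by gene symbol from the array's annotation, and where several probe sets name a gene, the one with the highest average over the 6 arrays stands for it. Of the 40 genes, 39 had a probe set that named them alone, out of 18193 genes measured in all, and Chaf1a was not analysed here. The arrays measured messenger RNA of whole mouse hearts on postnatal day 10. The hearts came from 3 wild-type mice and from 3 mice with a knockout of miR-1-2, a gene for the muscle microRNA miR-1. Each array is taken as the heart of 1 mouse, since the titles give only genotype, age and a replicate number. The labels name no strain, litter, sex or allele. No treatment is named, and the knockout label does not say in which cells the microRNA was missing. Values are on the log2 scale and were made by the authors with RMA, a method that corrects background, brings arrays to a common distribution and gives 1 value per probe set. A difference of 1 on this scale is a change of 2-fold.

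Before a cell copies its DNA, the origin recognition complex loads rings of MCM proteins onto origins, a step called licensing. Cyclin E and E2F factors then drive the cell into S phase, when the MCM ring is turned into an active helicase and polymerases, the sliding clamp and nucleotide-making enzymes do the copying. Most of these genes are transcribed only in dividing cells, many through E2F sites near their start. In the mouse heart the muscle cells largely leave the cell cycle in the days after birth, while endothelial cells, fibroblasts and blood cells can go on dividing. In a whole heart, fewer dividing cells and less of a transcript in each of them cannot be told apart.

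No replication gene was called different between knockout and wild-type hearts once the number of genes tested was taken into account. Of the 39 genes, 13 were higher and 26 lower in knockout, and their median log2 difference was -0.042. That direction turned in some fits: 26 were higher without knockout replicate 1 (median 0.026), and 29 were higher with the level of Xist, a marker of female cells, as a covariate (median 0.065). Xist was low on 2 of the 3 knockout arrays and on 0 of the 3 wild-type arrays. The genotype difference in the Xist fit therefore rests on knockout replicate 2, and genotype and sex are nearly confounded. The median of all 18193 genes was 0.00048, and 49.8% of them were lower. With limma and Benjamini-Hochberg adjustment over all genes, 0 of 39 passed an adjusted p of 0.05, against 0% of all genes. At an unadjusted p of 0.05, 1 of 39 passed in limma, Orc1, against 4.1% of all genes. The larger contrast in these genes lay between arrays of the same genotype, and its source was not tested. In 28 of 39 genes, replicate 1 was the lowest array in wild type and also in knockout, which was so for 24.9% of all genes.

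Short stretches upstream of a replication gene's start are shown because these genes are the textbook targets of E2F factors, and because most of them moved together over the arrays. The motif searched on both strands was the E2F site in 4 forms that can overlap one another: TTCCCGC, its form TTCGCGC, its form TTGCCGC and its form TTGGCGC. Windows of 300 bases, 250 before and 50 after each start, came from RefSeq's promoters of GRCm38.p6, which held 32 of the 39 measured genes. A match was present in 22 of these 32 genes (68.8%), against 2311 of 14452 genes tested on the array that have a window (16.0%). The median GC content was 57.7% in the replication windows and 58.3% over all genes tested. Among windows of like GC content the shares were 72.2% for replication genes and 15.7% for all genes. The 100 bases before the start follow for 6 genes of different roles, with matches in capitals.
Mcm6: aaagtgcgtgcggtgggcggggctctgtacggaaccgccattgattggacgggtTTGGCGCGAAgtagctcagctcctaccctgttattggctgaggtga
Orc1: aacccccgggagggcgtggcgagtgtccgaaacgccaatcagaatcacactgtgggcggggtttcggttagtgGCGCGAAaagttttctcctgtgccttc
Prim1: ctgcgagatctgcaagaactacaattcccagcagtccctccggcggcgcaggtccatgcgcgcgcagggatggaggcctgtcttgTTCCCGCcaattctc
Rfc3: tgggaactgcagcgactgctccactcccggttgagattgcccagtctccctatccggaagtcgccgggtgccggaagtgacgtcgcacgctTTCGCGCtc
Rrm1: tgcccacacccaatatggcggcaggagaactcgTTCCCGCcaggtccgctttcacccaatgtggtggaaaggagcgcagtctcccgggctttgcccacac
Uhrf1: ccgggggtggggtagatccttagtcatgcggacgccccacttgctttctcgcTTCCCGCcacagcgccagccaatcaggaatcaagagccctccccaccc

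In GRCm38.p6 these stretches lie at chr1:128359706-128359805 on the minus strand for Mcm6 and chr4:108579354-108579453 on the plus strand for Orc1. Those of Prim1 and Rfc3 lie at chr10:128015115-128015214 (plus) and chr5:151651209-151651308 (minus). Those of Rrm1 and Uhrf1 lie at chr7:102441595-102441694 (plus) and chr17:56303237-56303336 (plus). In Mcm6 a forward and a reverse match overlap and make a single run of capitals from position -46 to -37, counted from the start. The match lies at -27 to -21 in Orc1, at -15 to -9 in Prim1, at -9 to -3 in Rfc3, at -67 to -61 in Rrm1 and at -48 to -42 in Uhrf1. A match is a description of these letters and not a measured binding site. Of the 22 genes with a match, 18 had replicate 1 as the lowest array in both genotypes, and of the 10 genes without a match, 5 did. Over all genes that order was seen in 24.9%, and this share was not split by the presence of a match. A link between the motif and the order of the arrays was not tested, and 10 genes are few for such a contrast.

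The MCM2-7 proteins form the ring that unwinds DNA at the fork. Of the 6 genes 0 passed the test in limma, and all 6 had a lower mean in knockout, with differences from -0.20 (Mcm2) to -0.027 (Mcm7). The shared sign was lost when single arrays were left out: 3 of the 6 were lower without knockout replicate 1 and 3 without wild-type replicate 3. With the Xist covariate it was 2 of the 6. Mcm2 stood at 8.38, 8.90 and 8.61 in wild-type replicates 1 to 3 and at 8.18, 8.57 and 8.56 in knockout replicates 1 to 3. The lowest array was knockout replicate 1 and the highest wild-type replicate 2, and the groups overlapped. The difference was -0.20 ± 0.15 (SE, n = 3 per group; limma adjusted p = 1.00), with a 95% interval from -0.54 to 0.14. Mcm7 stood at 8.63, 9.03 and 9.06 in wild type and at 8.54, 9.07 and 9.04 in knockout. In Mcm7 both replicate 1 arrays were low and the other 4 arrays lay close together in both genotypes. The same order, with replicate 1 lowest in wild type and in knockout, held for all 6 genes of the ring. Wild-type replicate 1 lay below the mean of replicates 2 and 3 by between 0.26 (Mcm6) and 0.42 (Mcm7), and knockout replicate 1 by between 0.18 (Mcm6) and 0.51 (Mcm7). Averaged over the ring, the arrays stood at 8.02, 8.29 and 8.40 in wild type and at 7.89, 8.27 and 8.23 in knockout.

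The genes of origin recognition and licensing had differences of either sign, and 0 of 6 passed in limma after adjustment. Orc1 encodes the largest subunit of the origin recognition complex, and it stood at 7.52, 7.35 and 7.42 in wild type and at 7.38, 7.03 and 7.20 in knockout. Knockout replicates 2 and 3 lay below every wild-type array, and knockout replicate 1 lay between wild-type replicates 2 and 3. The difference was -0.23 ± 0.098 (SE, n = 3; limma unadjusted p = 0.0489, adjusted p = 1.00). The other Orc1 probe set, which is dimmer, differed by -0.031. Orc6, the smallest subunit, stood at 6.78, 6.84 and 6.90 in wild type and at 6.92, 6.94 and 6.999 in knockout. All 3 knockout arrays lay above all 3 wild-type arrays, and the difference was 0.11 ± 0.069 (limma adjusted p = 1.00, n = 3). Gmnn encodes geminin, which blocks licensing by binding Cdt1. It stood at 8.32, 8.20 and 8.37 in wild type and at 8.38, 8.40 and 8.52 in knockout, with no overlap. The difference was 0.14 ± 0.078 (limma adjusted p = 1.00, n = 3). Cdt1, the licensing factor itself, differed by -0.12, Mcm10, an initiation factor at the fork, by -0.089, and Cdc6, the loader of the MCM ring, by 0.013. Orc6 and Gmnn were the only members above wild type on all knockout arrays, which was so for 4.57% of all genes. Only Gins1 and Fen1 lay below wild type on all knockout arrays, which was so for 4.28% of all genes. These 4 of 39 genes compare with 8.86% of all genes in either direction.

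Cdc45 and the GINS proteins turn the MCM ring into the active helicase. Gins1 stood at 6.56, 6.56 and 6.74 in wild type and at 6.42, 6.46 and 6.47 in knockout. The knockout arrays were close to each other and all below wild type. The difference was -0.17 ± 0.076 (SE, n = 3; limma unadjusted p = 0.0539, adjusted p = 1.00), and a dimmer Gins1 probe set differed by -0.018. Cdc45 stood at 7.14, 7.07 and 7.07 in wild type and at 7.18, 7.19 and 7.10 in knockout. The groups overlapped and the difference was 0.063 ± 0.068 (limma adjusted p = 1.00, n = 3). The dimmer Cdc45 probe set went the opposite way, at 6.48, 6.55 and 6.49 in wild type and at 6.43, 6.41 and 6.37 in knockout, with no overlap and a difference of -0.10 (limma unadjusted p = 0.166, adjusted p = 1.00). Gins2 differed by -0.012.

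Among the polymerases and primase, all 5 genes had a lower mean in knockout, with differences from -0.13 (Pola1) to -0.0043 (Pole), and 0 passed. After a further quantile normalization 4 of the 5 were lower, after each array was centred on its median 3 were, and without knockout replicate 1 it was 1 of the 5. With all probe sets of a gene averaged it was 3 of the 5. Pola1 encodes the catalytic subunit of polymerase alpha, which starts each new strand together with primase. It stood at 6.69, 6.90 and 6.94 in wild type and at 6.43, 6.91 and 6.80 in knockout, and knockout replicate 1 was the lowest array. Its difference was -0.13 ± 0.13 (SE, n = 3; limma adjusted p = 1.00), and -0.26 in the pair of replicates 1 against 0.013 in that of replicates 2. Prim1, the catalytic subunit of primase, stood at 7.15, 7.45 and 7.44 in wild type and at 6.94, 7.51 and 7.45 in knockout. Both replicate 1 arrays were low and the other 4 lay within a narrow band. Prim2, the other primase subunit, went the opposite way, with knockout replicate 1 at 7.40 against 7.12 and 7.14 in the other knockout arrays. Pold1 and Pole, the catalytic subunits of the polymerases delta and epsilon, differed by -0.0065 and -0.0043.

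Pcna, the sliding clamp that holds polymerases on DNA, stood at 10.55, 10.66 and 10.82 in wild type and at 10.48, 10.70 and 10.63 in knockout. The groups overlapped, with knockout replicate 1 lowest and wild-type replicate 3 highest. The difference was -0.076 ± 0.093 (SE, n = 3; limma adjusted p = 1.00), with a 95% interval from -0.29 to 0.14. The clamp-loader genes Rfc3, Rfc4 and Rfc5 differed by 0.13, -0.079 and -0.042. Rfc3 was the most variable of them, at 6.10 in knockout replicate 1 and 6.69 in knockout replicate 2. In all 4 clamp and clamp-loader genes replicate 1 was lowest in both genotypes.

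Fen1, the nuclease that trims lagging-strand fragments, stood at 9.60, 9.50 and 9.55 in wild type and at 9.46, 9.30 and 9.45 in knockout. All knockout arrays lay below all wild-type arrays, and replicate 1 was not low in either group. The difference was -0.15 ± 0.076 (SE, n = 3; limma unadjusted p = 0.0882, adjusted p = 1.00). A second Fen1 probe set behaved differently. It stood at 6.50, 6.92 and 6.91 in wild type and at 6.43, 7.03 and 6.82 in knockout, so that both replicate 1 arrays were low and the genotypes differed by -0.018. The brighter set carries the suffix _x_at, which the array's maker gives to sets with probes that can match other transcripts. Lig1, the ligase that joins the fragments, differed by -0.032, and Rpa2, a subunit of the single-strand binding protein, by -0.089. Rpa2 ran from 6.88 in knockout replicate 1 to 7.49 in knockout replicate 2, a wider range than between the genotypes. A second Rpa2 probe set, almost as bright, stood at 7.20, 7.03 and 6.94 in knockout replicates 1 to 3. In that set knockout replicate 1 was the highest knockout array, and the genotypes differed by -0.11.

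The 4 genes of deoxynucleotide supply all had a higher mean in knockout, by 0.0044 to 0.18, and 0 passed in limma. After a further quantile normalization 3 of the 4 were higher, and it was 2 when replicate 1 of wild type, or replicate 2 or 3 of knockout, was left out. With all probe sets of a gene averaged 3 of the 4 were higher, with a median of 0.029, and single sets of Rrm1, Rrm2 and Tyms were lower. Tk1, the S-phase thymidine kinase, stood at 7.31, 7.49 and 7.57 in wild type and at 7.45, 7.82 and 7.64 in knockout. Each knockout array was above the wild-type array of its number, and the groups overlapped. The difference was 0.18 ± 0.11 (SE, n = 3; limma adjusted p = 1.00). Rrm2 encodes the S-phase subunit of ribonucleotide reductase, the enzyme that makes deoxynucleotides. It stood at 8.09, 8.61 and 8.77 in wild type and at 8.11, 8.82 and 8.74 in knockout. Replicate 1 was low in both genotypes, by 0.60 in wild type and 0.67 in knockout against the mean of replicates 2 and 3, while the genotypes differed by 0.064 ± 0.22 (SE, n = 3; limma adjusted p = 1.00). Rrm1, the large subunit of the same enzyme, differed by 0.0044. Tyms, thymidylate synthase, stood at 4.65, 4.47 and 4.51 in wild type and at 4.68, 4.70 and 4.53 in knockout, a difference of 0.097 ± 0.083 (limma adjusted p = 1.00, n = 3). Its 4 probe sets all had means under 5, in the dim part of the scale where RMA compresses differences.

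The regulators of S-phase entry went both ways. E2f1, a transcription factor that activates replication genes, stood at 7.15, 6.98 and 7.16 in wild type and at 6.96, 6.91 and 6.99 in knockout. Wild-type replicate 2 lay within the knockout range, and the difference was -0.14 ± 0.076 (SE, n = 3; limma adjusted p = 1.00). The other E2f1 probe sets differed by -0.046 and 0.038. Ccne1 and Ccne2 encode the E-type cyclins and differed by 0.091 and -0.098. Ccne2, singled out after its values were seen, stood at 5.14, 5.56 and 5.26 in wild type and at 4.67, 5.52 and 5.47 in knockout. Knockout replicate 1 was 0.83 below the mean of the other knockout arrays, the widest such gap of the 39 genes. Chek1, the kinase of the replication checkpoint, differed by 0.045.

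Among the genes of chromatin assembly and maintenance methylation, Chaf1b, a subunit of the histone chaperone of replicated DNA, stood at 5.65, 5.59 and 5.75 in wild type and at 5.31, 5.63 and 5.70 in knockout. Only knockout replicate 1 stood apart, and the difference was -0.12 ± 0.11 (SE, n = 3; limma adjusted p = 1.00). Dnmt1, which copies DNA methylation to the new strand, stood at 8.05, 8.31 and 8.39 in wild type and at 7.93, 8.47 and 8.44 in knockout. Uhrf1 brings Dnmt1 to replicated DNA, and its array values are given outside the naming rule stated below. It stood at 6.94, 7.42 and 7.48 in wild type and at 6.90, 7.74 and 7.49 in knockout. In both genes replicate 1 was low in each genotype and the groups overlapped. The genotype differences were 0.027 for Dnmt1 and 0.096 for Uhrf1. Hells, a chromatin remodeller needed for DNA methylation, differed by -0.058.

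**Figure D1:**
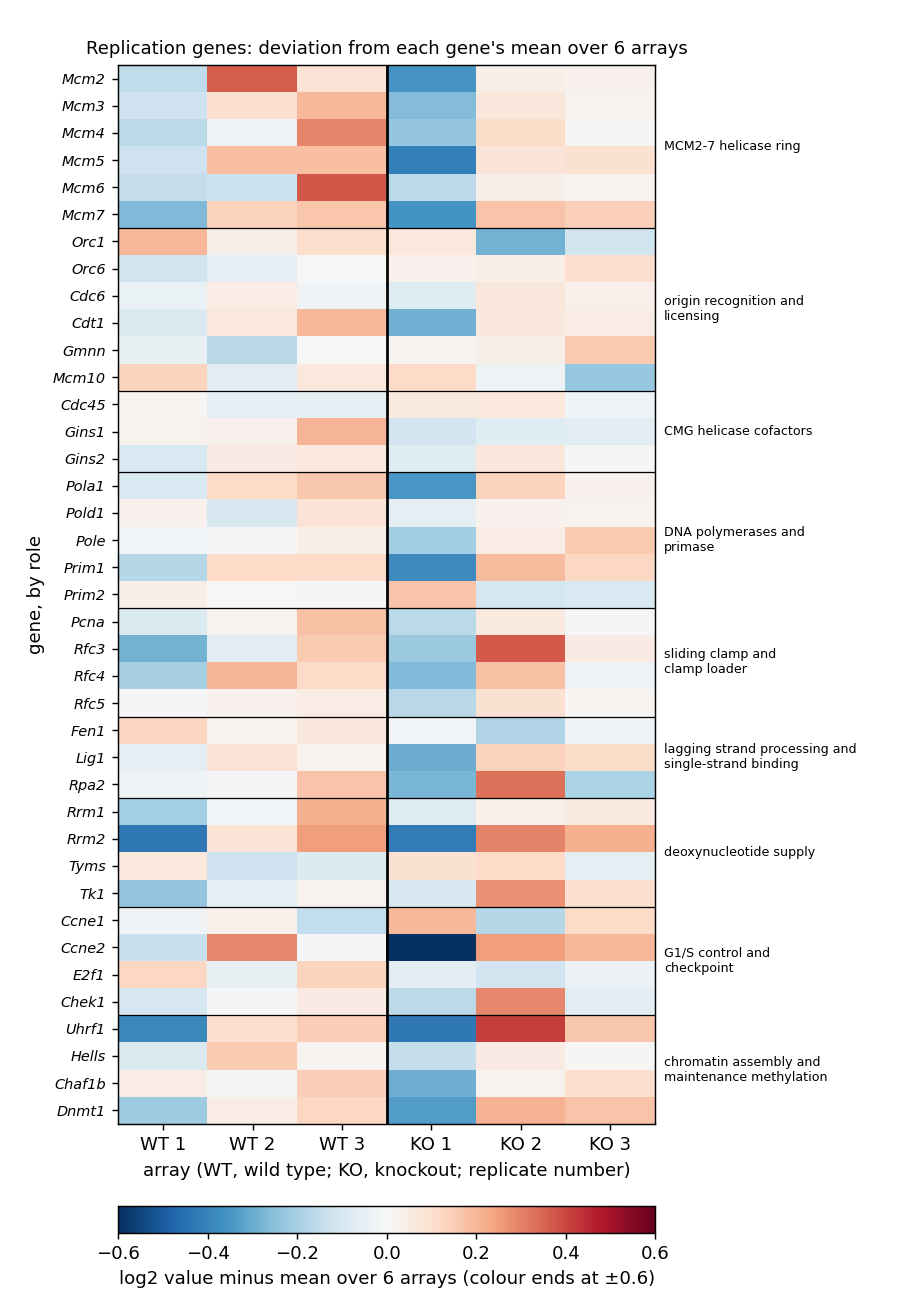
Deviation of each of 39 replication genes (rows, grouped by role) from its own mean over the 6 arrays (columns: 3 wild-type, then 3 knockout), in log2 units, with colours that end at ±0.6. The columns of replicate 1 are mostly blue in both genotypes. In the sets shown for Orc1, Mcm10, Fen1 and Prim2, replicate 1 is highest in both genotypes. Further genes, such as Tyms, Cdc45 and Ccne1, do not share the common pattern either.

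**Figure D2:**
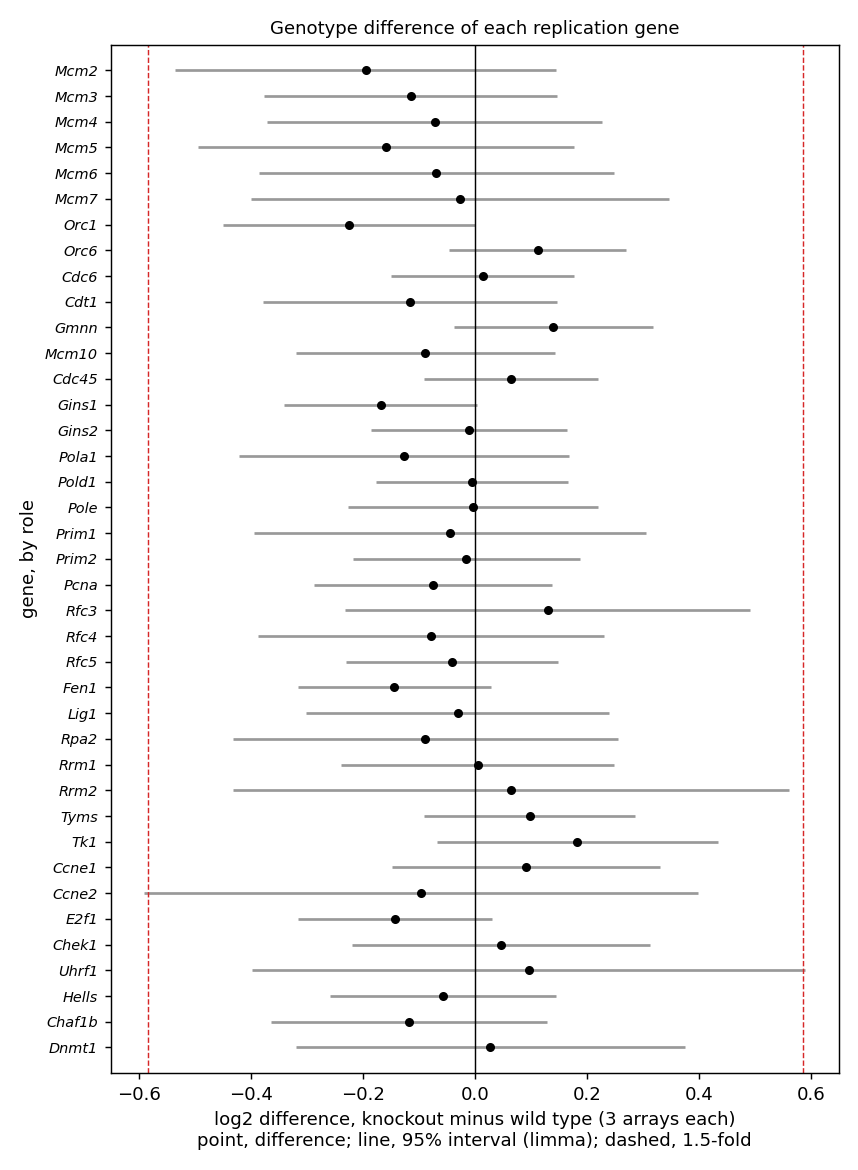
Log2 difference between knockout and wild type (3 arrays each) for 39 replication genes, with 95% intervals from limma as horizontal lines and 1.5-fold in either direction as dashed lines. The interval of Orc1 reaches from -0.45 to -0.0013 and is the only one without 0, and 37 of 39 intervals lie within the dashed lines.

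In limma 37 of 39 intervals lay within a change of 1.5-fold in either direction, and all 39 within 2-fold. Of all genes, 98.1% had an interval within 1.5-fold. The exceptions at 1.5-fold were Ccne2, with a lower bound of -0.59, and Uhrf1, with an upper bound of 0.59. These intervals are per gene and were not widened for the number of genes. They also take no account of sex, which is nearly confounded with genotype here. With the Xist covariate, where the difference rests on knockout replicate 2, member differences ran from -0.39 to 0.46. Standard errors ran from 0.068 to 0.22, and with 3 arrays per group their number limits the precision.

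Different probe sets of a gene often disagreed on the sign of such small differences. The 39 genes had 89 probe sets, and 30 genes had more than 1. In 12 of these 30 all probe sets went in the same direction, 11 lower and 1 higher, and in 18 they did not. Over all 89 probe sets the median difference was -0.027, 59 were lower in knockout and 0 passed an adjusted p of 0.05 in limma. The lowest unadjusted p in limma belonged to a dim Mcm5 probe set, at 5.03, 5.17 and 4.96 in wild type and 4.83, 4.68 and 4.81 in knockout. Its difference was -0.28 (unadjusted p = 0.0095, adjusted p = 1.00), beside -0.16 and -0.13 for the brighter Mcm5 sets. Replicate 1 was lowest in both genotypes in 55 of the 89 probe sets (61.8%).

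The titles number the replicates 1 to 3 in each genotype, and compared by number the median genotype difference changed sign between pairs. Only the titles give this pairing. Over all genes, deviations from the group means correlated at 0.18 and 0.13 between same-numbered replicates 2 and 3. Crossed, they correlated at 0.35 and 0.30, so the numbers 2 and 3 are weak as pairs. In the pair of replicates 1, 28 of 39 genes were lower in knockout, with a median of -0.078. In the pair of replicates 2, 12 were lower, with a median of 0.036, and in the pair of replicates 3, 26 were lower, with a median of -0.063. Over all genes 48.4%, 48.4% and 50.2% were lower in these pairs. In all 3 pairs 9 members were lower, against 13.2% of all genes, and 5 were higher, against 15.2% of all genes. The 9 were Mcm2, Mcm3, Mcm5, Orc1, Gins1, Rfc4, Fen1, E2f1 and Hells, and the 5 were Orc6, Gmnn, Cdc45 (in its brighter probe set), Tyms and Tk1. With the replicate number as a block in limma 0 of 39 genes passed, against 0.0715% of all genes (13 genes). The smallest member adjusted p was 0.542 in that fit, for Orc1, and 4 members had an unadjusted p under 0.05 (Mcm2, Orc1, Gins1 and Tk1), against 7.29% of all genes.

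The mean of the 39 genes was 7.19, 7.31 and 7.37 in wild-type replicates 1 to 3 and 7.10, 7.36 and 7.30 in knockout replicates 1 to 3. Both replicate 1 arrays lay below all other arrays, and the other 4 overlapped. The median gene lay 0.15 below replicates 2 and 3 in wild type and 0.27 below in knockout, against 0.0046 below and 0.0099 above for all genes. The 4 members in which replicate 1 was highest in both genotypes were Orc1, Mcm10, Prim2 and Fen1, and such an order was seen in 21.6% of all genes. That order depended on the probe set. In the dimmer Orc1 and Fen1 sets replicate 1 was lowest in both genotypes, and the dimmer Prim2 sets did not have it highest in both. One dimmer Mcm10 set kept the order and another did not. The median member difference changed size or sign with single arrays. Without wild-type replicate 1 it was -0.11 and 30 of 39 genes were lower in knockout, and without knockout replicate 1 it was 0.026 and 26 of 39 were higher. It was -0.0026 without wild-type replicate 2, 0.0021 without wild-type replicate 3, -0.097 without knockout replicate 2 and -0.076 without knockout replicate 3. With replicates 2 and 3 alone it was -0.0085, with 20 lower and 19 higher.

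**Figure D3:**
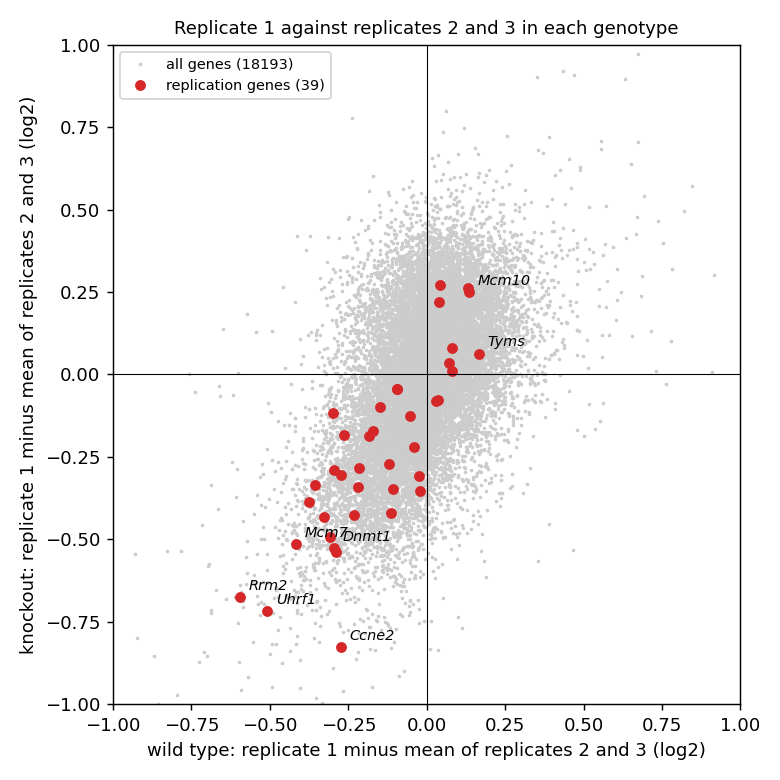
Replicate 1 minus the mean of replicates 2 and 3, in log2 units, in wild type (horizontal) and knockout (vertical), for all 18193 genes (grey) and the 39 replication genes (red); 28 genes lie outside the axes. Most red points lie to the lower left, with Rrm2, Uhrf1 and Ccne2 farthest out, and a few such as Mcm10 and Tyms lie to the upper right.

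Markers of other cell types also differed between replicate 1 and the rest. Ucp1, which lets brown fat make heat, stood at 9.45 in wild-type replicate 1 and at 10.39 in knockout replicate 1, against 5.22 to 6.68 elsewhere. Adipoq, the fat hormone adiponectin, was at 6.85 and 7.32 in those arrays and at 3.68 to 3.86 elsewhere. Of 10 measured fat markers, 5 were highest and 1 was lowest in replicate 1 in both genotypes. The mean of all 10 ran from 6.57 to 7.37 in wild type and from 6.58 to 7.66 in knockout. A few markers carried much of that range. Replicate 1 lay above replicates 2 and 3 by a mean of 0.79 but a median of 0.045 in wild type. In knockout it lay above them by a mean of 1.02 and a median of 0.30. Lymphoid and thymus markers were highest in replicate 1 in both genotypes in 11 of 17, with means from 5.56 to 5.92 in wild type and from 5.47 to 5.71 in knockout. Among their defining genes Rag1 was at 5.90 in wild-type replicate 1 and 4.52 in knockout replicate 1 against 3.68 to 3.96 elsewhere, and Ptcra lay between 5.93 and 6.19 on all arrays. Of 15 myeloid markers 11 were highest in replicate 1 in both genotypes, with means from 7.16 to 7.48 in wild type and from 6.98 to 7.18 in knockout. Between the genotypes, 14 of these 15 had a lower mean in knockout, against 49.8% of all genes, with a median of -0.21. In limma 0 of the 15 passed an adjusted p of 0.05, against 0% of all genes. At an unadjusted p of 0.05, 6 of the 15 passed, against 4.1% of all genes. In 7 of the 15 all knockout arrays lay below all wild-type arrays, against 4.28% of all genes. Endothelial markers shared the replicate 1 order of the replication genes. Of 12, 10 were lowest in replicate 1 in both genotypes, with means from 8.60 to 8.79 in wild type and from 8.59 to 8.85 in knockout. Between the genotypes 10 of the 12 were higher and 2 lower in knockout, with a median of 0.059, and 0 passed in limma. Of all genes, 50.2% were higher in knockout. Cardiomyocyte markers were lowest in replicate 1 in both genotypes in 8 of 11, over a narrow range of means from 13.46 to 13.61. Fibroblast markers were lowest there in 2 of 10, with means from 10.996 to 11.25, and erythroid markers in 0 of 9, with means from 6.12 to 6.26. No marker was listed at 0, since RMA gives none. The part of these cell types in the replication genes' levels was not tested.

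**Figure D4:**
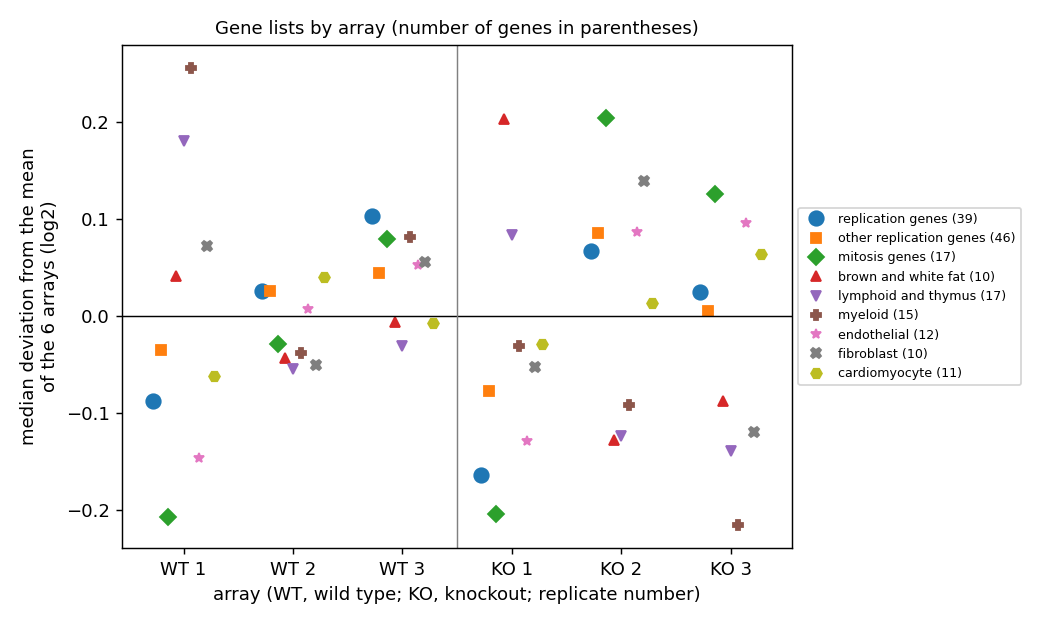
Median deviation from the 6-array mean, in log2 units, of the replication genes and of lists of other replication, mitosis and cell type genes on each array (3 wild type, 3 knockout). Replication, mitosis and endothelial genes lie below 0 in both replicate 1 arrays, where fat and lymphoid markers lie above 0.

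Sex also differed between arrays. Xist, which silences an X chromosome in female cells, stood at 7.55 and 7.57 in knockout replicates 1 and 3 and at 11.91 to 12.19 in the other 4 arrays, and Eif2s3y, on the Y chromosome, was high where Xist was low. With the Xist level as a covariate in limma 0 of 39 members passed and the median member difference was 0.065, with 29 of 39 higher in knockout. Knockout replicate 2 was the only knockout array with high Xist, so the genotype difference in the Xist fit rests on that array. Genotype and sex are nearly confounded in these arrays, and their parts cannot be told apart. The pair of replicates 2 is the only one with high Xist in both genotypes, and there the median member difference was 0.036.

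Other genes of DNA replication, 46 measured of 48 listed, went both ways between the genotypes. Of these, 24 were higher and 22 lower in knockout, with a median of 0.0028, and in limma 0 passed at an adjusted and 0 at an unadjusted p of 0.05. The split changed with single arrays: 14 were higher without wild-type replicate 1, 13 without knockout replicate 2 and 30 without knockout replicate 1. With the Xist covariate 35 were higher and 11 lower, with a median of 0.073. The 4 with the smallest p were Mcm8, a helicase of DNA repair (-0.20), Dna2, a nuclease of lagging-strand fragments (-0.17), E2f7, a repressor of E2F targets (-0.13), and Dut, which removes dUTP (-0.15). Replicate 1 was lowest in both genotypes in 20 of the 46. The same promoter motifs were present in 22 of 39 of these genes (56.4%).

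Mitosis genes stood beside them as the next step of the cycle. Of 17 measured, 16 were higher and 1 lower in knockout, with a median of 0.089, and 0 passed in limma. The size and sign changed with single arrays. Without wild-type replicate 1 the median was -0.0050 and 8 of the 17 were higher, and without knockout replicate 2 it was 0.014 and 10 were higher. Without knockout replicate 3 it was 0.032 (11 higher). It grew to 0.16 without wild-type replicate 3 (17 higher), to 0.23 without knockout replicate 1 (16 higher) and to 0.25 with the Xist covariate (16 higher). Their mean was 7.14, 7.33 and 7.43 in wild type and 7.18, 7.52 and 7.47 in knockout, so that replicate 1 was again lowest in each genotype, in 14 of the 17 genes. Ttk, a kinase of the spindle checkpoint, was at 6.22, 6.26 and 6.41 in wild type and at 6.58, 6.63 and 6.57 in knockout, a difference of 0.30 ± 0.075 (SE, n = 3; limma unadjusted p = 0.00381, adjusted p = 1.00). All knockout arrays lay above all wild-type arrays in Ttk. The others with the smallest p were Plk1 (0.15), Aurkb (0.11) and Bub1b (0.097), kinases of mitosis and its checkpoint. Whether mitosis and replication genes differed from each other in their response was not tested. An E2F motif as searched above was present in 2 of 15 mitosis genes with a window (13.3%), and the CCAAT box, the motif CCAAT on either strand, in 13 of 15 (86.7%). For the replication genes the CCAAT box was present in 18 of 32 (56.2%), and for all genes tested in 42.0%.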

How the data were processed

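Total RNA of whole hearts was hybridised to Affymetrix mouse arrays with 45101 probe sets, and the submitters' processing notes name GCOS 1.4. The deposited log2 values were made by the authors with RMA in the affy package, per the series' design text. No label gives affy's version. After 64 control probe sets were left out, 34945 probe sets named 1 gene, 932 several and 9160 none. Names came from the platform annotation, updated by gene identifier through RefSeq's table of GRCm38.p6. The 18193 genes were compared in R 4.3.3 by lmFit and eBayes of limma 3.58.1, without a block. P-values were adjusted over all genes by Benjamini-Hochberg, at a threshold of 0.05. The step was tested on simulated data with independent noise on each array. The simulation held no shared shift of replicate 1 and no sex effect, so it does not cover those features of these arrays. The titles number the arrays as replicates 1 to 3 of each genotype and do not name the mice. The members and gene lists were chosen with earlier results of these data known. All members may be named. Values on every array are given for the member with the highest mean and the one with the smallest p in each role, and for the 10 smallest p. Ccne2 and Uhrf1 are given on every array outside this rule. Dixon's outlier rule was not applied to groups of 3. Arrays with the same number deviated from their group means with correlations over genes of 0.54, 0.18 and 0.13, all above the 0.1 set for treating the numbers as pairs; the pairing comes from the titles alone, and crossed arrays of replicates 2 and 3 correlated at 0.35 and 0.30. Arrays carry no read depth.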

Additional observations from a re-analysis of the deposited data

How the results depend on the processing

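None of the replication genes tested (34 to 39) passed in any of the 17 alternative fits, and none of the other replication genes did; the smallest member adjusted p in limma was 0.0747, for Orc1 with array weights. The count of all genes passing was 0 without a block and 13 with the replicate block. It was 15 with replicate 1 as a batch, 416 with array weights, 3 when all probe sets of a gene were averaged and 1 with only replicates 2 and 3, and it ran from 0 to 4 when each array was left out (4 without knockout replicate 1, 2 without knockout replicate 2). The median member difference was -0.11 to 0.026 over the fits that left out an array, and 0.065 with the Xist covariate. In 3 alternatives (the block, replicate 1 as a batch, and trend and robust variance) the difference equals the one without a block by construction. In the others it was negative in 11 and positive in 3, within the spread between arrays (0.12). Chaf1b changed sign with array weights (0.013). The cause of these shifts was not tested. Signal near the floor limits Tyms and Cdc6, whose means were under 5. The all-probe-sets median was added after the data were seen. Every other member of the 10 with the smallest p kept its sign.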
